A study of Mus musculus with 2 samples.

Results

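The 10 genes of ovulation and cumulus expansion examined in DNase-seq data of the mouse ovary were these: the growth factors Areg, Ereg and Btc, their receptor Egfr, the prostaglandin genes Ptgs2 and Ptger2, the matrix genes Has2, Tnfaip6 and Ptx3, and the protease Adamts1. The members were chosen by name, with earlier results of these data known. Every peak and footprint in their GENCODE M21 gene bodies and the 50 kb either side was taken (build mm10). These 10 of 21728 protein-coding genes had windows of 1272.1 kb in all. The windows held 72 of 95860 peaks and 110 of 181693 footprints in replicate 1, and 67 of 83934 peaks and 117 of 200902 footprints in replicate 2. Merging the lists gave 86 regions of 112418, of which 51 were shared, meaning that both replicates had a peak there.

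The libraries came from whole ovary of female B6CASTF1/J mice, a hybrid of the C57BL/6 and CAST strains, aged 18 to 20 months. The series holds 1 group with 2 libraries, numbered as biological replicates, and no treatment, hormone injection or cycle stage is named in the labels. The replicates have separate biosample entries but 1 donor entry, so their spread may not be a spread between animals. With 1 group no comparison between conditions could be tested, and every difference below describes these 2 libraries.

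DNase I cuts DNA where chromatin is open, so a peak marks an accessible site, and a footprint is a short stretch within it that is cut less than its surroundings. At ovulation, luteinizing hormone acts on the mural granulosa cells of the follicle, which then release the EGF-like ligands amphiregulin, epiregulin and betacellulin. The EGF receptor carries the signal to the cumulus cells around the oocyte, which switch on cyclooxygenase 2 and hyaluronan synthase 2 and build a hyaluronan matrix that is cross-linked by proteins such as TSG-6 and pentraxin 3. Most of these genes are known for a brief burst of transcription after the hormone surge, while accessibility shows only which DNA was open, not whether a gene was transcribed.

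The tissue label was checked against marker genes. Promoters were open in both replicates for 5 of 6 granulosa, 5 of 6 theca and luteal, 4 of 4 stromal and 2 of 3 endothelial markers. They were open for 1 of 4 surface epithelial, 1 of 2 oviduct, 0 of 4 leukocyte and 0 of 3 hepatocyte markers. The share was 62.3% over all protein-coding genes and 48.65% over all 37 markers. The endothelial list, at 66.7%, lay near that of all genes, and the surface epithelial and oviduct lists, at 25% and 50%, lay below it. The leukocyte marker Cd68 had a promoter peak in replicate 1 alone, at 0.937. None of the 5 oocyte markers (Zp1, Zp2, Zp3, Figla and Nobox) had a promoter peak in either replicate. The oviduct genes Foxj1, at 6.81 and 5.39, and Ovgp1, at 0.594 in replicate 2 alone, had peaks. Their part in the results was not tested. In whole tissue, fewer cells of a type and less open chromatin per cell cannot be told apart.

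Promoters of 8 of the 10 genes (80%) were open in both replicates, where open means a peak within 500 bp of any annotated transcription start; over all protein-coding genes the share was 62.3%. Those 8 were Areg, Ereg, Btc, Egfr, Ptgs2, Ptger2, Tnfaip6 and Adamts1. Has2 and Ptx3 had a promoter peak in replicate 1 alone. All 8 open promoters held a footprint in their strongest peak in both replicates, against 94.7% of all promoters open in both, so neither count set the genes far from the rest. The strength of the peaks did differ: the median signal of the 8 was 1.21, and that of all 13527 open promoters was 4.03. The signal is the authors' depth-scaled value per peak, here averaged over both replicates. Egfr and Adamts1 were the strongest members, and 7 of the 8 lay below the median of all open promoters.

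**Figure D1:**
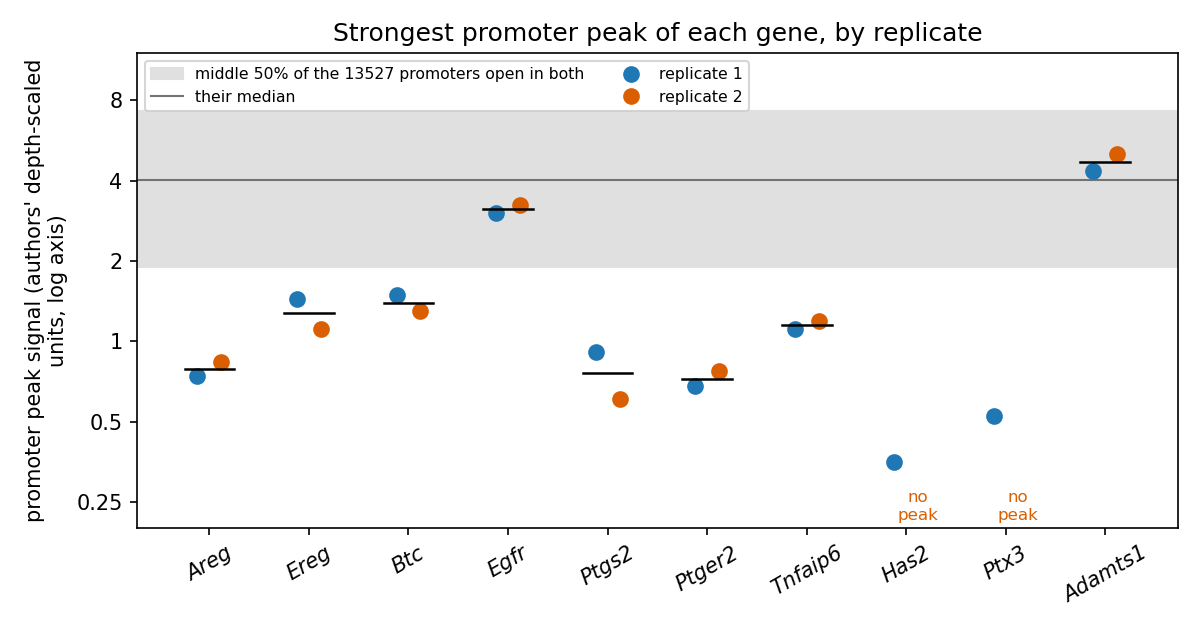
Signal of the strongest promoter peak of each gene (authors' depth-scaled units, log axis) in replicate 1 (blue) and replicate 2 (orange), with the mean as a black bar. The grey band spans the middle 50% of all 13527 promoters open in both replicates, from 1.90 to 7.30, with a line at their median of 4.03; among the members only Egfr and Adamts1 lie in it, and Has2 and Ptx3 have no peak in replicate 2.

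Among the ligands, Areg, which encodes amphiregulin, had a promoter signal of 0.743 in replicate 1 and 0.836 in replicate 2 (0.789 ± 0.0661, SD, n = 2). This was a weak promoter in both libraries, with 8.83% and 10.9% of the open promoters weaker. The peak spans the annotated start on chromosome 5 (chr5:91139599-91148432, plus strand), and its upstream sequence is shown because it holds the full cyclic AMP response element (CRE), the binding sequence of the CREB family. The 120 bases before the 5′ end, chr5:91139479-91139598, read as follows, with capitals for matches to the searched consensus sequences.
Areg upstream: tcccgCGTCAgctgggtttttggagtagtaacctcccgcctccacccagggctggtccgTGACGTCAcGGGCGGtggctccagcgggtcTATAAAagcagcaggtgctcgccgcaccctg
The CRE, TGACGTCA, began at position -61, counted from the annotated 5′ end, and lay in a footprint of replicate 1 but not of replicate 2. Next to it the SP/KLF match GGGCGG began at -52, and the TATA box TATAAA at -31, outside any footprint. Of all 21728 promoters of the same 300 bases, 2.45% held the full CRE, and among the 10 members it occurred in Areg alone.

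Ereg lies next to Areg on the same strand and encodes epiregulin. Its promoter signal was 1.44 in replicate 1 and 1.11 in replicate 2 (1.28 ± 0.235, SD, n = 2), higher than Areg in both libraries. The peak lay just inside the gene, its centre 209 bp past the 5′ end (chr5:91074721-91074940), with 1 footprint in replicate 1 and 5 in replicate 2. A weaker shared region sat 348 bp upstream, at 0.431 and 0.274. The sequence between them, chr5:91074502-91074621, is shown because it carries a TATA box at -32, in capitals, in the same place as in Areg although outside both peaks.
Ereg upstream: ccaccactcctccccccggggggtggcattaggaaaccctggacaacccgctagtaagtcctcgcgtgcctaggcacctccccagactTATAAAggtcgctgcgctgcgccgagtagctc
A distal site lay 35.8 kb upstream of Ereg (chr5:91038687-91038940), between Epgn and Ereg, at 0.635 in replicate 1 and 0.946 in replicate 2. It held 1 footprint in each replicate, and these overlapped. Capitals in the stretch below (chr5:91038809-91038859, plus strand) mark bases in a footprint of either replicate.
Ereg distal site: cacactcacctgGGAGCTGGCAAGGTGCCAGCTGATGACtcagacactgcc
The longer footprint, of replicate 2, ended inside the AP-1 sequence TGACTCA, the binding sequence of FOS and JUN proteins. Epgn, the gene of the related ligand epigen, had no promoter peak in either replicate. Only 1 more shared region lay between Ereg and Areg (chr5:91114701-91114820), and it was weak, at 0.420 and 0.360 with no footprint.

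Btc, encoding betacellulin, lies further along chromosome 5 on the minus strand (chr5:91357261-91402994). Its promoter signal of 1.49 in replicate 1 and 1.30 in replicate 2 (1.39 ± 0.133, SD, n = 2) was above that of Areg in both libraries and, in replicate 1, close to that of Ereg. The replicates placed 5 footprints and 1 footprint in the promoter peak, and none of them overlapped. Beyond the promoter, the window held 1 shared intergenic region, 94.9 kb downstream of the 5′ end, at 0.915 and 0.469.

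Egfr encodes the receptor of these ligands and spans 165956 bp (chr11:16752203-16918158, plus strand). Its promoter signal was 3.01 in replicate 1 and 3.23 in replicate 2 (3.12 ± 0.151, SD, n = 2), more than that of any of the ligands in both libraries. The 60 bases before its 5′ end, chr11:16752143-16752202, are shown because they held no TATA box and an SP/KLF match (CCGCCC, the reverse strand of GGGCGG, in capitals) that touched a footprint of both replicates.
Egfr upstream: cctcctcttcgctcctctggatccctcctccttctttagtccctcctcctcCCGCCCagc
The match began at -9. This gene had the most shared regions of any member, with 17 in its window, which at 6.39 per 100 kb was a higher density than around 66.7% of all genes. One of the 17 was the promoter of the neighbouring gene Fbxo48, at 9.06 and 10.9, the strongest peak of all 10 windows.

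The strongest distal site of Egfr lay in an intron 48.5 kb past the 5′ end (chr11:16800581-16800860). It reached 3.50 in replicate 1 and 4.46 in replicate 2, above the Egfr promoter in both. Its 4 footprints of replicate 1 all overlapped a footprint of replicate 2, which had 5. The next strongest was intergenic, beyond the 3′ end (chr11:16939581-16939780), at 0.990 and 1.51. A second intronic site, 17.7 kb past the 5′ end, reached 1.14 and 1.07. Footprinted stretches of the first intronic site (chr11:16800743-16800801) and the second (chr11:16769760-16769819), both on the plus strand, are shown with footprint bases of either replicate in capitals.
Egfr intronic site, first: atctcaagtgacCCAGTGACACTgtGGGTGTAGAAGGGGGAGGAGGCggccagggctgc
Egfr intronic site, second: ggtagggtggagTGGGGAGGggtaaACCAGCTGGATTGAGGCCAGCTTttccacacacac
Apart from these sites, the shared regions in introns of Egfr were weak, at 0.377 to 0.915 in replicate 1 and 0.516 to 0.985 in replicate 2. Several weak regions of 1 replicate lay among them, and the strongest of these was an intronic region of replicate 2 at 0.946.

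**Figure D2:**
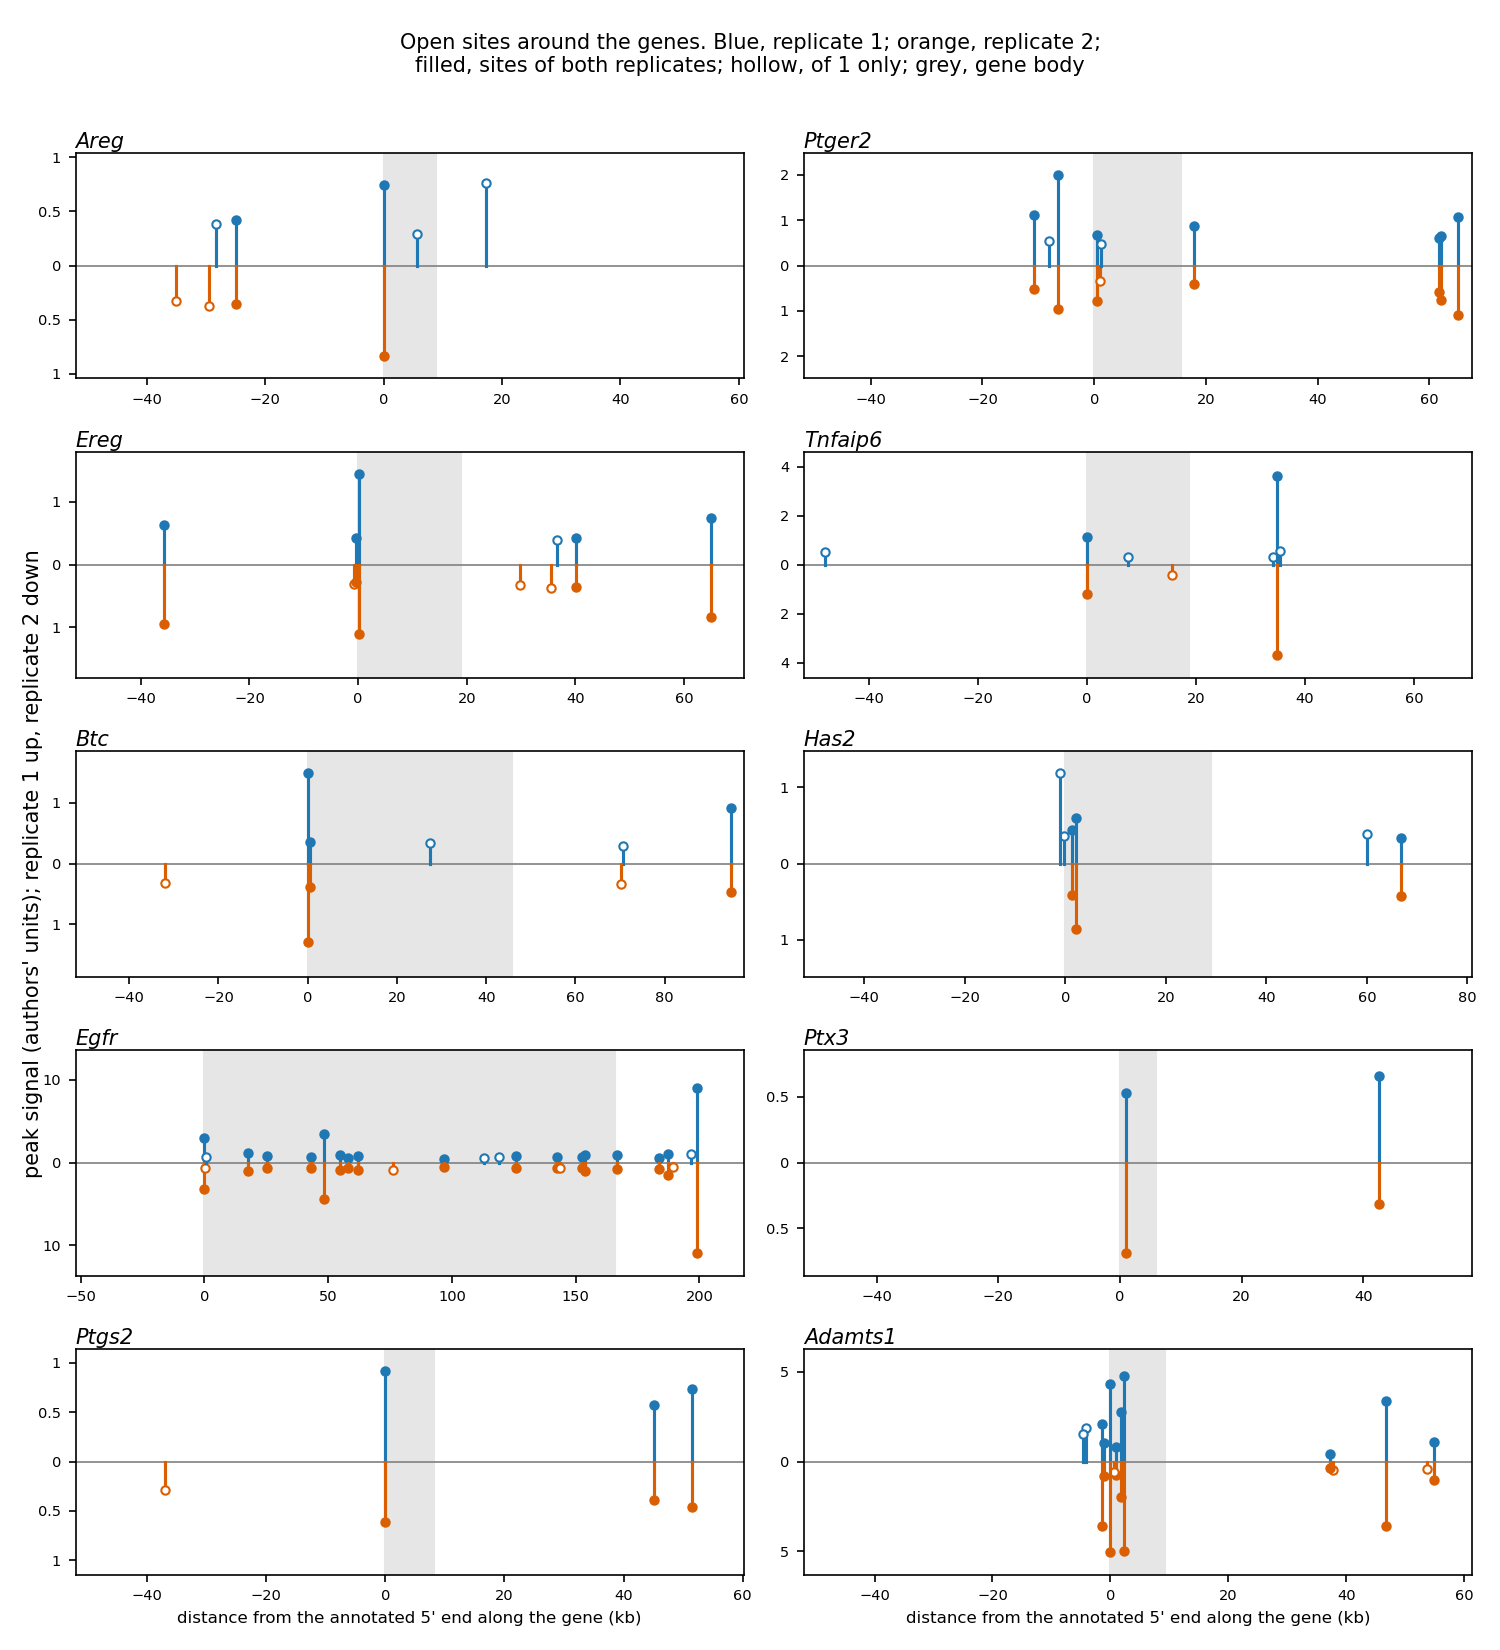
Peak signal (authors' units, a separate scale for each gene) against distance from the annotated 5′ end in kb, with replicate 1 drawn upward in blue and replicate 2 downward in orange. Filled points are shared regions, hollow points regions of 1 replicate, and grey is the gene body. Egfr and Adamts1 have strong sites away from their 5′ ends, whereas Ptgs2 and Ptx3 have few sites. The tall site in the Tnfaip6 panel is the promoter of Rif1.

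Of the prostaglandin genes, Ptgs2 encodes cyclooxygenase 2, the inducible enzyme that starts prostaglandin synthesis (chr1:150100031-150108227, plus strand). Its promoter signal was 0.915 in replicate 1 and 0.610 in replicate 2 (0.762 ± 0.216, SD, n = 2), and 12.2% and 6.33% of the open promoters were weaker. Although the promoter was weak in both, the 120 bases before the 5′ end are printed because they hold a C/EBP sequence (chr1:150099911-150100030). They overlap an exon of the noncoding antisense gene Ptgs2os for 53 bases.
Ptgs2 upstream: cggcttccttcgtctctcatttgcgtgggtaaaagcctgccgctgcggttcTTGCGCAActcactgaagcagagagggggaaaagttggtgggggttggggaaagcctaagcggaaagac
The C/EBP match TTGCGCAA (consensus TTGCNNAA, in capitals) began at -69 and touched a footprint of replicate 1 alone. An E-box, CACGTG, began at position 17 and touched a footprint of replicate 2 alone. The same footprint covered the whole of CGTCA at position 14, the reverse strand of the short CRE form TGACG. The footprints of this promoter, 3 in replicate 1 and 2 in replicate 2, did not overlap between the libraries.

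Both other shared regions of the Ptgs2 window lay beyond its 3′ end. The nearer, 45.2 kb past the 5′ end (chr1:150145101-150145360), reached 0.571 in replicate 1 and 0.391 in replicate 2. The farther, 51.6 kb past it (chr1:150151481-150151680), reached 0.732 and 0.461. Replicate 2 was thus lower at all 3 shared regions of Ptgs2, with log2 ratios of -0.59 at the promoter, -0.55 and -0.67, where the median over all shared regions was -0.03. The footprinted stretches of these regions are printed (chr1:150145176-150145221 and chr1:150151510-150151540, plus strand, capitals for footprint bases of either replicate) because AP-1 matches lie at both.
Ptgs2 nearer site: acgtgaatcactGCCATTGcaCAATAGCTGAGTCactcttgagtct
Ptgs2 farther site: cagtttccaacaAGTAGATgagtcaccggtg
In the nearer one, TGAGTCA was touched by a footprint of replicate 1, and the C/EBP match TTGCACAA beside it was touched by a footprint of each replicate. In the farther one, TGAGTCA was touched at its first base by a footprint of replicate 1.

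Ptger2 encodes EP2, a receptor of prostaglandin E2 (chr14:44988195-45003820, plus strand). No peak covered its annotated 5′ end: the promoter peak lay around the other annotated start, its centre 556 bp further in. The signal there was 0.678 in replicate 1 and 0.774 in replicate 2 (0.726 ± 0.0676, SD, n = 2). The window held 7 shared regions, and 3 of these were more than 2-fold lower in replicate 2 than the median ratio of all shared regions gives. They lay 10.7 kb upstream (1.12 and 0.524), 6474 bp upstream (1.99 and 0.961) and 17.9 kb past the 5′ end (0.861 and 0.414). The site 65.2 kb past the 5′ end was alike in both, at 1.07 and 1.09. Over all shared regions 91.4% lay within 2-fold of the median ratio, and among the 51 member regions the only other one outside it was in the Ptx3 window. Stretches from the sites 10.7 kb upstream (chr14:44977417-44977484) and 65.2 kb downstream (chr14:45053343-45053404) show where their long footprints fell, in capitals for either replicate on the plus strand.
Ptger2 upstream site: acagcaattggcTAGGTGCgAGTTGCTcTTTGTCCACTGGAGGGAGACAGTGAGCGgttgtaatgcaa
Ptger2 downstream site: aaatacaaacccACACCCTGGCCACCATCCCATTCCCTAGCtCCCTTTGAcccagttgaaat
At the upstream site a footprint of 28 bp in replicate 1 contained one of 8 bp in replicate 2. At the downstream site a footprint of 29 bp in replicate 2 contained one of 18 bp in replicate 1.

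**Figure D3:**
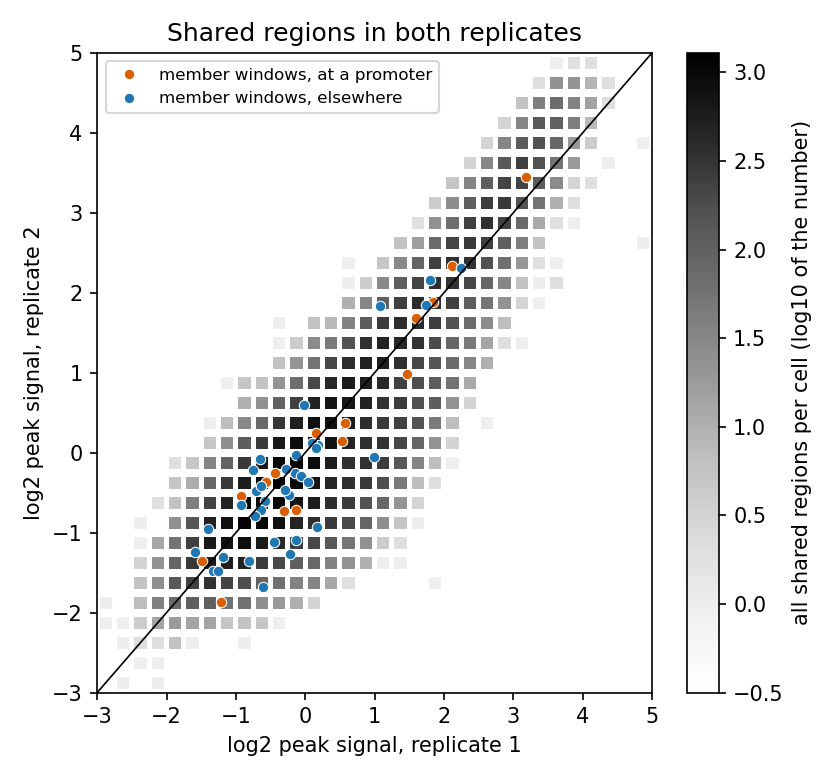
Log2 peak signal of shared regions in replicate 1 (horizontal) and replicate 2 (vertical). Grey cells give the number of all 64875 shared regions, on a log10 colour scale, and points are the 51 regions of the member windows, of which 16 lie at promoters (orange) and 35 elsewhere (blue); the line marks equal signal.

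Tnfaip6 encodes TSG-6, which transfers heavy chains of inter-alpha-inhibitor to hyaluronan (chr2:52038009-52056686, plus strand). Its promoter signal was 1.11 in replicate 1 and 1.19 in replicate 2 (1.15 ± 0.0560, SD, n = 2). This was its only shared region, since the second in its window was the promoter of Rif1, at 3.61 and 3.69. The 120 bases before the 5′ end (chr2:52037889-52038008) are shown because they hold an AP-1 match, TGAGTCA, at -38, a CCAAT box at -48 and an SP/KLF match at -67, all in capitals.
Tnfaip6 upstream: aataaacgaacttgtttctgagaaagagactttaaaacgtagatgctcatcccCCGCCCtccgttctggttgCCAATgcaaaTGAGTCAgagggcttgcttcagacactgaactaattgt
The AP-1 match, the only one in the 300-base promoters of the members, touched no footprint. The SP/KLF match touched a footprint of replicate 2 alone.

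Has2 encodes the hyaluronan synthase of cumulus cells (chr15:56665627-56694539, minus strand). Its promoter signal was 0.355 in replicate 1, where 1.16% of the open promoters were weaker, and replicate 2 had no peak there. In replicate 2 no base within 500 bp of the start was listed below a false discovery rate of 0.05. A stronger region of replicate 1 alone lay upstream (chr15:56695501-56695700) at 1.18, with 4 footprints, and 96.1% of all regions seen in replicate 1 alone were weaker. Both replicates agreed on a site in an intron, 2123 bp past the 5′ end (chr15:56692292-56692540), at 0.592 and 0.860. Its footprints are shown on the minus strand (chr15:56692397-56692438), with bases of either replicate in capitals, because they cover an E-box, CACGTG, in both.
Has2 intronic site: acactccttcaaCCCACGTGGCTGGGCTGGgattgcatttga
Has2 was thus open in both replicates inside the gene and in replicate 1 alone at its start. A further shared intronic region, 1378 bp past the 5′ end and at the start of the noncoding antisense gene Has2os, reached 0.441 and 0.406. The remaining shared region, intergenic and 66.8 kb past the 5′ end, reached 0.334 and 0.422 with no footprint.

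Ptx3, encoding pentraxin 3, had the fewest regions, with 2 in its window (chr3:66219910-66225805, plus strand). The nearer, with its centre 945 bp past the 5′ end (chr3:66220701-66221009), reached 0.527 in replicate 1 and 0.688 in replicate 2. It counts as a promoter peak in replicate 1 alone because the peak of replicate 2 began outside the 500 bp around the second annotated start. In the longer lists, the difference between the replicates at this promoter therefore rests on where the limit was set, since both had a peak in the region. The shorter lists held no shared region in this window. The other region lay in an intron of the neighbouring gene Veph1, at 0.657 and 0.313.

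Adamts1 encodes a secreted protease that cleaves versican in the expanding matrix (chr16:85793827-85803113, minus strand). It had the strongest promoter of the 10 genes, at 4.34 in replicate 1 and 5.03 in replicate 2 (4.69 ± 0.492, SD, n = 2), and 55.8% and 59.2% of the open promoters were weaker. The 160 bases before its 5′ end (chr16:85803114-85803273, minus strand) are shown because 4 matches, in capitals, touched footprints of both replicates.
Adamts1 upstream: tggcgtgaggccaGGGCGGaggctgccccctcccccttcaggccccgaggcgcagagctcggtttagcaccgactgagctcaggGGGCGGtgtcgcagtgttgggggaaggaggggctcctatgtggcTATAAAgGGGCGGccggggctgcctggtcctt
These were SP/KLF matches at -147, -76 and -25 and the TATA box at -32. A TATA box began at -31 or -32 in 3 of the 10 promoters, those of Areg, Ereg and Adamts1, while 12.7% of all promoters held TATAAA anywhere in the 300 bases. Only that of Adamts1 touched a footprint.

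Adamts1 also had the densest window, with 9 shared regions or 8.24 per 100 kb, more than around 78.6% of all genes. An intronic site 2262 bp past the 5′ end (chr16:85800741-85800960) reached 4.77 and 4.97, about as strong as the promoter. An intergenic site 46.8 kb past the 5′ end (chr16:85756181-85756480) reached 3.35 and 3.60, and 84.9% and 86.3% of all shared regions were weaker. Its 3 footprints of replicate 1 all overlapped footprints of replicate 2. A site 1388 bp upstream (chr16:85804381-85804620) reached 2.11 and 3.56, the highest ratio of replicate 2 to replicate 1 among the 51 member regions (log2 0.76). The leading footprints of the last 2 sites, on the minus strand (chr16:85756258-85756311 and chr16:85804486-85804530, capitals for either replicate), are printed because they recurred at nearly the same bases.
Adamts1 distal site: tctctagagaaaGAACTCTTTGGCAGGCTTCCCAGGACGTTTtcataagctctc
Adamts1 upstream site: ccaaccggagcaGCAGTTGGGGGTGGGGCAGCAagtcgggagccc
At the distal site the footprints spanned 28 and 30 bp, and at the upstream site 17 and 21 bp. A pair of peaks of replicate 1 alone lay further upstream, at 1.89 and 1.56, and 99.4% and 98.7% of all regions seen in replicate 1 alone were weaker. Adamts1 was therefore strong in both libraries, but not every strong site near it was found in both.

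Over the 10 windows, 51 of 86 regions (59.3%) were shared, against 57.7% of all regions. A further 20 regions were found in replicate 1 alone and 15 in replicate 2 alone. Of the 51, 16 lay at promoters, 1 in an exon, 14 in introns and 20 between genes, and 29 (56.9%) lay over 2 kb from any coding start. They were mostly weak, and 17 (33.3%) exceeded the median mean signal of all shared regions. The median signal was 0.850 in replicate 1 and 0.774 in replicate 2, against 1.12 and 0.977 over all shared regions. Windows of the members held a median of 3 shared regions and 2.55 per 100 kb, against 6 and 4.48 over all genes (interquartile range 1.82 to 7.62 per 100 kb). All but Egfr, Ptger2 and Adamts1 lay below that median density. Areg and Ereg share part of their windows, and regions in both were counted once in the sum.

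**Figure D4:**
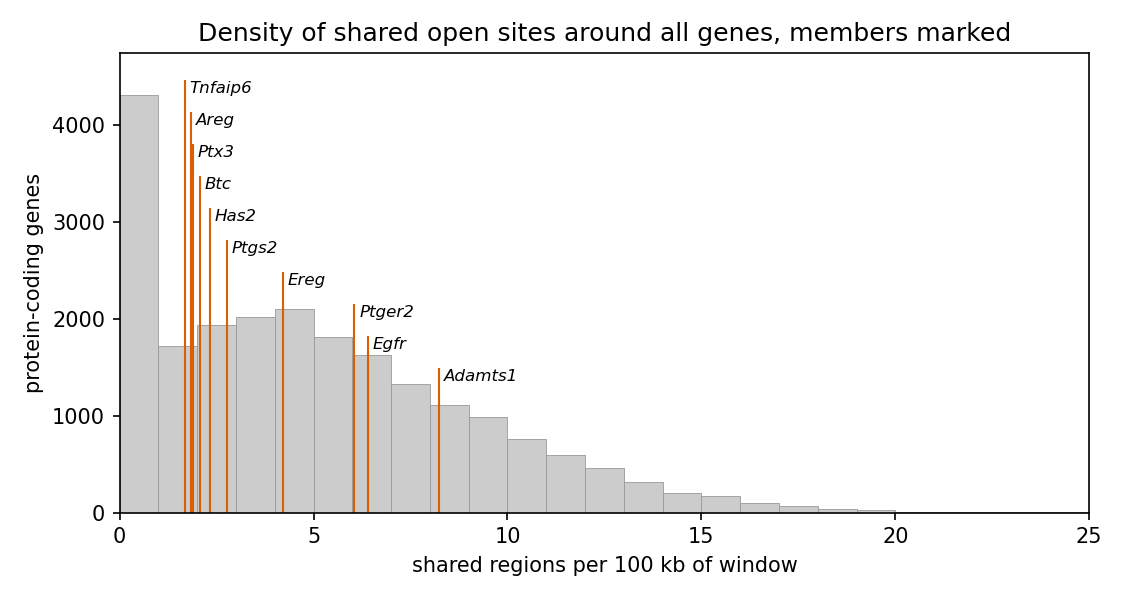
Histogram of shared regions per 100 kb over the gene body with 50 kb flanks of all 21728 protein-coding genes, with the 10 members marked. The members run from 1.69 (Tnfaip6) to 8.24 (Adamts1), and 7 of them lie below the median of 4.48.

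Of the 51 shared regions of the members, 30 (58.8%) held a footprint in both replicates, against 77.4% of all shared regions. Regions with a mean signal under 1 were also taken alone, and among these 13 of 34 (38.2%) did, against 57.6% of all such regions. Every stronger member region held a footprint in both replicates, as did most of all stronger shared regions. The lower share of the members thus lay in their weak regions. In shared regions of the windows, 49 of 88 footprints of replicate 1 (55.7%) overlapped a footprint of replicate 2, and 46 of 104 of replicate 2 (44.2%) overlapped one of replicate 1. Over all shared regions these shares were 58.0% and 51.1%.

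The sequence searches covered 200 bases around the centre of each shared region, which run past the ends of narrower regions, on both strands without mismatch. AP-1 (TGANTCA) was found around 14 of the 51 member regions, against 10.2% of all 64875. The regions come from few genes and were not tested. Within whole shared regions there were 17 AP-1 matches, and 2 touched a footprint in both replicates, at Adamts1 and Ptger2. SP/KLF, in 13 of the 51 against 24.9% of all, had 29 matches, and 8 touched a footprint in both. These 8 lay at the promoters of Adamts1 and Egfr and of the neighbouring genes Rif1 and Fbxo48. The NR5A sequence CAAGGTCA, bound by the steroidogenic factors SF-1 and LRH-1, was in 0 of the 51 against 4.91% of all, and in 0 of the 10 promoters against 1.46%. The sequence AGATAA, bound by GATA factors, was in 7 of the 51 against 9.94%.

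In the 300-base promoters, the short CRE form TGACG occurred in 4 of the 10, those of Areg, Btc, Ptgs2 and Adamts1, against 23.3% of all. C/EBP occurred in 3, those of Ptgs2, Ptger2 and Ptx3, against 10.6%. The C/EBP matches of Ptger2 and Ptx3 and the TGACG matches of Btc and Adamts1 touched no footprint. Other sequences lay on either side of the share of all promoters. RUNX (TGTGGT) was in 3 against 15.3%, the CCAAT box in 3 against 38.9%, and AGATAA in 0 against 10.2%. These counts were not tested. The full CRE contains the short form, so Areg counts in both.

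By CpG content, the ratio of observed to expected CpG in the 300-base promoter, 8 of the members fell in the middle tertile of all genes, Btc in the lowest and Areg in the highest. Over all genes 21.5%, 71.4% and 93.9% of promoters in the lowest, middle and highest tertile were open in both replicates. Open promoters had median signals of 1.88, 3.12 and 5.27 in these tertiles. Of the 8 members in the middle tertile 6 were open in both. Btc was open although its tertile was mostly closed, and Areg was weak although its tertile was the strongest.

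Other genes of the ovulation pathways were taken as 72 genes in 6 lists that leave out the 10 members. Their promoters were open in both replicates in 58 cases (80.6%), near the share of the members, against 62.3% of all genes. The lists were chosen with earlier results of these data known, and the share was not tested. Another 6 were open in 1 replicate and 8 in neither. In the EGF family 7 of 9 were open in both, led by Adam17, the protease that releases the ligands (7.43 and 8.95), and Egf itself (4.39 and 5.55). In prostaglandin synthesis and reception 11 of 13 were open, led by the synthase Ptges3 (7.42 and 8.32) and the receptor Ptger4 (4.89 and 4.90), both several times stronger than Ptgs2 or Ptger2. Of the matrix proteases 9 of 11 were open, led by the cathepsin gene Ctsl (5.89 and 6.52) and Adamts9 (4.60 and 5.94).

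The hyaluronan list was the least open, with 7 of 12. Its strongest promoters were those of the hyaluronan receptor gene Hmmr (5.71 and 7.32), whose start lies 245 bp from that of Nudcd2, and of the hyaluronidase gene Hyal2 (2.94 and 3.16). The synthase Has1 and the inter-alpha-inhibitor genes Ambp, Itih1 and Itih2, which the liver is known to supply to serum, had no promoter peak. Among regulators induced by luteinizing hormone 17 of 18 were open, with the AP-1 subunit gene Fosl2 (8.85 and 13.7) and Egr1 (8.46 and 9.90) the strongest and the estrogen sulfotransferase gene Sult1e1 closed in both. Of the signals between oocyte and cumulus cells 7 of 9 were open. Smad3, a mediator of TGF-beta signals, reached 7.55 and 13.9. The oocyte factor gene Gdf9 had 10.2 and 16.9, but Uqcrq, a subunit gene of the respiratory chain, starts 192 bp away, so the peak cannot be assigned to either gene. The other oocyte factor genes, Bmp15 and Fgf8, had no promoter peak.

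**Figure D5:**
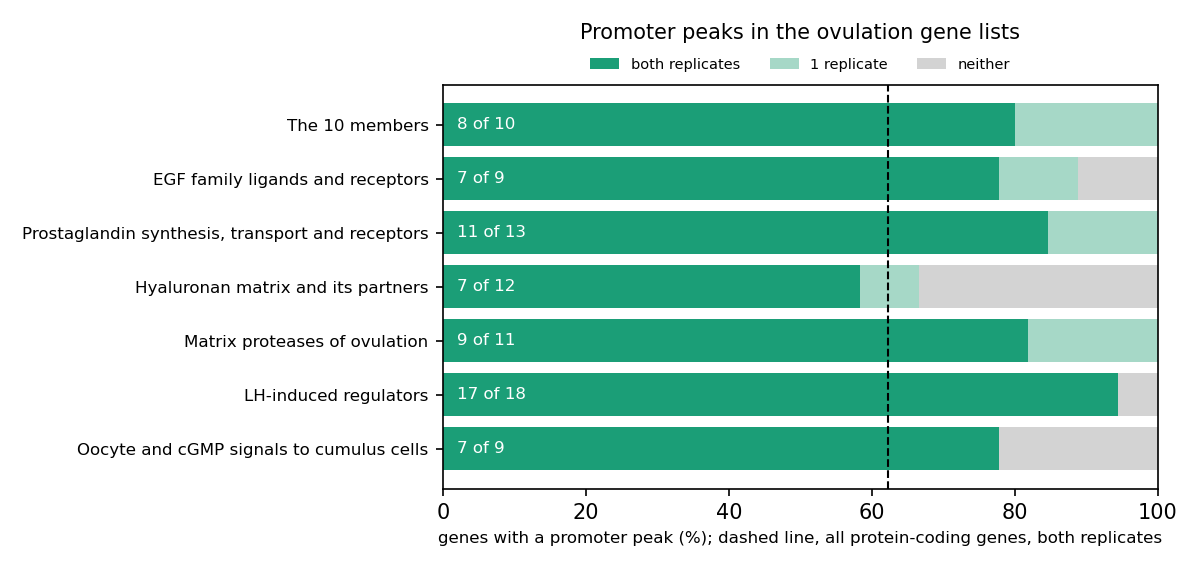
Percentage of genes whose promoter was open in both replicates (dark green), in 1 replicate (light green) or in neither (grey) for the 10 members and 6 lists of related genes that leave the members out. The dashed line is the 62.3% of all protein-coding genes open in both; the hyaluronan list, at 7 of 12 genes, lies below it and the other lists above it.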

How the data were processed

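DNase-seq of whole ovary gave 2 libraries of 1 group. For each library the authors deposited footprints, bases with their false discovery rate and 2 peak lists, per the file headers on mm10 and without pooling; aligner and callers: not given in the sources used here. Deposited peak signal is scaled for depth by the authors: every value (100%, tolerance 0.05 steps) was a whole multiple of a step, 0.0108 in replicate 1 and 0.00782 in replicate 2, and the absolute depth is unknown, so no counting intervals are given. The deposited p-value type values, false discovery rates, are listed only below 0.05. The deposited footprints carry the constant label 0.01.

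The longer peak lists (95898 and 83982 peaks) were used, on the autosomes and X, with genes of GENCODE M21 (27 repeated symbols dropped). Peaks or footprints overlapped if they shared at least 1 bp. Regions were merged peaks of both lists, and distances run to their centres. A match touched a footprint if they shared at least 1 bp. Sequences were read from the GRCm38.p6 reference genome of RefSeq, which is of the C57BL/6 strain, so CAST alleles are not shown. RefSeq's promoter table held 8 of the 10 members, and all 8 of its sequences equalled the genome at RefSeq's own coordinates. They were not compared with the promoters searched here. Positions count the base at the annotated 5′ end as 1, with negative numbers before it and no position 0. Promoters searched for sequences run from 250 bases before to 50 after it.

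Named are the 10 members, the 2 genes with the strongest promoter and those closed in both replicates of each pathway list, and up to 3 strongest shared regions of each window outside promoters; other regions, genes and sequences named were chosen after their values were seen. The members and lists were chosen with earlier results of these data known. Values are those of each replicate or mean ± SD (n = 2), with no test. Merging, overlap and the choice of the promoter peak were tested on simulated peaks with known answers, and the signal steps were not. Python 3.11.15, NumPy 2.4.6, pandas 2.3.3, Matplotlib 3.10.9, pysam 0.24.0 and samtools 1.23.1 were used. Alternatives were the shorter lists, promoters of 2000 bp, the 5′ end only, flanks of 10 kb, a reciprocal overlap of 50%, and each replicate left out.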

Additional observations from a re-analysis of the deposited data

How the results depend on the processing

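The count of members open in both replicates, 8, was 7 with the shorter peak lists, which lack Ptger2, 10 with promoters of 2000 bp, 8 at the 5′ end only, and 8 to 10 with 1 replicate left out. Members with a footprint in the promoter peak of both replicates numbered 8, 7 with the shorter lists, 9 with promoters of 2000 bp and 8 at the 5′ end only. With either replicate left out the number was 8. Pathway genes open numbered 58, 52 with the shorter lists, 52 at the 5′ end only, 61 with promoters of 2000 bp, and 60 to 62 with 1 replicate left out. Shared regions fell from 51 to 25 with the shorter lists and to 33 with flanks of 10 kb, since fewer peaks or less sequence are counted, and a single replicate gave 66 to 71 regions. The percentage of footprints found in both replicates, a mean of 49.96 over both directions (SD 8.10), was 60.92 with the shorter lists and 27.54 with a reciprocal overlap of 50%. The cause was not tested, and it has no value with 1 replicate. Promoters of 2000 bp took in a stronger peak at Adamts1, for a mean signal of 4.90, and the shorter lists gave no value for Ptger2. Leaving out a replicate gives the other replicate's signal, as printed with each gene. Of 50 alternative counts per window, 23 moved by over 1.5 times. No paired analysis was possible because there is 1 group. The absolute depth is unknown, so a site called in 1 replicate alone is not shown to be closed in the other.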
